A study of Mus musculus with 246 samples.

Results

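The comparison is between adult male mice that had been raised under early life adversity and exposed to SAFit2 or to vehicle, in the medial prefrontal cortex (mPFC), after a social interaction. Its members were the RNA-seq libraries whose titles name both the mPFC and a social interaction, which are 20 of the 246 libraries of the series. Of these, 7 came from ELA_SAFit2 mice and 7 from ELA_Vehicle mice, and these 14 were compared. The other 6 came from Ctrl_Vehicle mice and give the background level. All mice were outbred CD1 males, 1 library per mouse and region. ELA stands for limited bedding and nesting, to which the dam and her litter were exposed in the first days after birth, while Ctrl litters kept standard cages. SAFit2 was given to the dam in a slow-release phospholipid gel and reached the pups through the milk, and Vehicle dams received the empty gel. Treatment therefore ended long before the tissue was taken in adulthood. Brains were collected after 10 minutes with an unfamiliar mouse, and infralimbic and prelimbic punches of both hemispheres were pooled. The labels do not give the litter of a mouse, so littermates may stand as separate replicates, and p-values measure the spread between these mice. The same contrast in mice taken without an interaction, 7 ELA_SAFit2 and 7 ELA_Vehicle animals that are different mice, was used to ask whether differences ran in the same direction.

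FKBP51, encoded by Fkbp5, is a co-chaperone of HSP90 that lowers the affinity of the glucocorticoid receptor for its hormone. The receptor induces Fkbp5 in turn, which closes a short feedback loop on the stress response. SAFit2 is a ligand that binds FKBP51 with selectivity over its close relative FKBP52 and blocks it. The mPFC sends projections to limbic regions and takes part in the control of stress responses and of social behaviour.

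Libraries held between 24752084 and 31153648 estimated counts in ELA_SAFit2 and between 26045947 and 32705598 in ELA_Vehicle mice. Cortical projection neuron markers summed to between 136069 and 193658 normalized counts in the 41 mPFC libraries, with none of the 12 markers at 0 in any group. Olfactory bulb markers were high in ELA_SAFit2 mouse 79 (13969, against at most 2020 in the other 6) and in ELA_Vehicle mouse 93 (11227, against at most 1293). Striatal markers were high in ELA_Vehicle mouse 61 (42399, against at most 8471). The library number of ELA_SAFit2 mouse 55 lies outside the run of the other mPFC libraries. Values given per mouse are normalized counts, that is estimated counts divided by the library's effective size, and they are not scaled to gene length, so levels are compared between mice and not between genes. In such bulk tissue, fewer cells of a type and less RNA per cell cannot be told apart.

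No gene passed an adjusted p of 0.05 after social interaction (0 of 15812 tested genes, 0% called; edgeR's quasi-likelihood test with Benjamini-Hochberg adjustment). The smallest adjusted p was 0.253, for Bex4 and C1ra, both with lower values in ELA_SAFit2 mice. At an unadjusted p under 0.05 there were 780 genes (4.93%), 378 of them higher (2.39%) and 402 lower (2.54%) with SAFit2. With DESeq2, 3 genes passed the adjusted threshold, Bex4, C1ra and Gm13693. The median standard error of a log2 fold change was 0.08, and the 95% interval lay within 0.5 of 0 on the log2 scale for 11851 genes (74.9%) and within 1 for 14095 (89.1%). The 7 ELA_SAFit2 and 7 ELA_Vehicle mice did not overlap for 6 genes (0.0379%). In Apoh, Eaf2 and Prn all ELA_SAFit2 mice lay above, and in Rsph9, Vps35l and Vps37c all lay below (Eaf2, Prn, Rsph9 and Vps35l were chosen after their values were seen). Without an interaction the groups did not overlap for 7 genes (0.0443%), and no gene was separated in the same direction in both sets of mice (0%). Regrouping 7 and 7 mice at random separates a gene, in either direction, with a probability of 0.000583. The shares of 0.0379% and 0.0443% are not above it, so separation alone does not mark out a gene.

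The complement genes C1ra and C1s1 stood lowest in ELA_SAFit2 mice. C1ra encodes a form of C1r, the serine protease that starts the classical complement cascade by cleaving C1s, and C1s1 encodes its substrate and partner. C1ra was at 3.1, 23.1 and 28.3 (lowest, median and highest) in ELA_SAFit2 mice, at 24.6, 46.1 and 117.2 in ELA_Vehicle mice and at 34.1, 45.2 and 52.7 in Ctrl_Vehicle mice. The ELA_SAFit2 and ELA_Vehicle ranges overlapped only in the lowest ELA_Vehicle mouse, and no ELA_SAFit2 mouse reached the Ctrl_Vehicle range. The log2 fold change was -1.44 ± 0.31 (SE; 95% interval -2.06 to -0.82; unadjusted p = 3.2e-05 and adjusted p = 0.253 with edgeR; two-sided exact permutation p = 0.00175). In mice without an interaction it was -1.11 ± 0.30 (edgeR's unadjusted p = 0.000587), with 12.7, 25.6 and 39.3 in ELA_SAFit2 against 40.1, 56.2 and 82.8 in ELA_Vehicle mice. There, all ELA_SAFit2 mice lay below all ELA_Vehicle mice, at the smallest p that the 3432 regroupings of 7 and 7 mice allow (exact permutation p = 0.000583).

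C1s1, chosen after its values were seen, was at 0.0, 13.2 and 29.3 in ELA_SAFit2 mice, at 16.7, 23.7 and 93.7 in ELA_Vehicle mice and at 17.6, 27.1 and 47.1 in Ctrl_Vehicle mice. The ELA groups overlapped. Its log2 fold change was -1.14 ± 0.45 (edgeR's unadjusted p = 0.0158), and -1.06 ± 0.44 without an interaction (unadjusted p = 0.0212). C1s1 was at 0 in ELA_SAFit2 mouse 23, and this mouse also had the lowest C1ra value of the 14. The highest C1ra and the highest C1s1 value both came from 1 ELA_Vehicle mouse, without which the log2 fold change of C1ra was -1.13.

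C1rb is a close copy of C1ra, and the authors' counting could divide reads between them, so the split is uncertain. In ELA_SAFit2 mouse 23 C1ra was at 3.1 and C1rb at 20.5. The log2 fold change of C1rb had the opposite sign to that of C1ra, at 0.79 ± 0.69 (edgeR's unadjusted p = 0.254). Without an interaction it was 1.06 ± 0.71 (unadjusted p = 0.146). With both genes summed, the ELA_SAFit2 mice were at 23.6, 27.9 and 44.0 and the ELA_Vehicle mice at 33.4, 47.3 and 131.2. The ranges overlapped, and the log2 ratio of the means was -1.01 (two-sided exact permutation p = 0.00408). Without an interaction the log2 ratio of the summed values was -0.82 (exact permutation p = 0.00175). Of the other tested genes of the C1r and C1s group, C1s2 had a log2 fold change of -0.80 ± 0.29 and C1rl of 0.59 ± 0.27 after social interaction (unadjusted p = 0.00895 and 0.0348).

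The promoters are shown because C1ra is the gene with the smallest p in the mean of both contrasts below and C1rb is its copy. The RefSeq windows from 250 bases before to 50 after the start share a run of 34 identical bases (in capitals), which 2 of 32851 windows hold and which lies before the start of both genes. C1ra lies at chr6:124512371-124512670 (plus strand) and C1rb at chr6:124570180-124570479 (plus strand), in build GRCm38.p6.
C1ra: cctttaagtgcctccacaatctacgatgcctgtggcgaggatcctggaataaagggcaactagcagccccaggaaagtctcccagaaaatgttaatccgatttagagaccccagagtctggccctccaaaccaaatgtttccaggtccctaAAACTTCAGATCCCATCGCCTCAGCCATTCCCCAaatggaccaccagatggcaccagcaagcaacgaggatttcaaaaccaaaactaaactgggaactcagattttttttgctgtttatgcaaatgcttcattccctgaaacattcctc
C1rb: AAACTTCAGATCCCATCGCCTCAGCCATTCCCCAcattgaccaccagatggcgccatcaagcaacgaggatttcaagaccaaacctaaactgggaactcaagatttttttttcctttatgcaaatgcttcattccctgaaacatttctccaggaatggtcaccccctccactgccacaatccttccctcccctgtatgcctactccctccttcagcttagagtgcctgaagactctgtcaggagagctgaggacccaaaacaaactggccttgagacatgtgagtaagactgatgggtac

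Bex4 and Bex1 belong to the brain-expressed X-linked genes, which encode small proteins of neurons that act as adaptors in growth factor and cell cycle signalling. Bex4 was at 115.3, 168.7 and 213.2 in ELA_SAFit2 mice and at 186.8, 262.7 and 286.5 in ELA_Vehicle mice. Ctrl_Vehicle mice were at 145.8, 153.8 and 186.3. The ELA_SAFit2 values spanned the Ctrl_Vehicle range, and every ELA_Vehicle mouse lay above it, with an overlap between the ELA groups at their edges. The log2 fold change was -0.62 ± 0.13 (95% interval -0.88 to -0.37; edgeR's unadjusted p = 1.72e-05, adjusted p = 0.253; exact permutation p = 0.00117). Without an interaction it was -0.35 ± 0.12 (unadjusted p = 0.0078), with 182.3, 195.4 and 250.2 in ELA_SAFit2 against 167.8, 268.3 and 324.0 in ELA_Vehicle mice, which overlapped more widely.

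Bex1 was at 712.7, 758.8 and 843.1 in ELA_SAFit2 mice, at 812.3, 882.9 and 988.9 in ELA_Vehicle mice and at 764.9, 818.5 and 858.5 in Ctrl_Vehicle mice. The ELA groups overlapped at their edges, and the log2 fold change was -0.19 ± 0.05 (unadjusted p = 0.000495, adjusted p = 0.893 with edgeR). The other tested members, Bex3 (-0.12 ± 0.04, unadjusted p = 0.00205) and Bex2 (-0.09 ± 0.03, unadjusted p = 0.00994), were looked at after their values were seen. All 4 tested Bex genes thus had a negative log2 fold change with an unadjusted p under 0.05 after social interaction (2.54% of all genes did), a count from which nothing can be read because Bex4 and Bex1 were named for their small p. Without an interaction the log2 fold changes were also negative in all 4, with an unadjusted p under 0.05 for Bex4 and Bex3 (2.3% of all genes were lower at that p).

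The starts of Bex4 and Bex1 are shown because they are nearly the same sequence. The RefSeq windows share 271 identical bases (in capitals), a run that 2 of 32851 windows hold. Bex4 lies at chrX:136138746-136139045 (plus strand) and Bex1 at chrX:136215464-136215763 (minus strand), in build GRCm38.p6.
Bex4: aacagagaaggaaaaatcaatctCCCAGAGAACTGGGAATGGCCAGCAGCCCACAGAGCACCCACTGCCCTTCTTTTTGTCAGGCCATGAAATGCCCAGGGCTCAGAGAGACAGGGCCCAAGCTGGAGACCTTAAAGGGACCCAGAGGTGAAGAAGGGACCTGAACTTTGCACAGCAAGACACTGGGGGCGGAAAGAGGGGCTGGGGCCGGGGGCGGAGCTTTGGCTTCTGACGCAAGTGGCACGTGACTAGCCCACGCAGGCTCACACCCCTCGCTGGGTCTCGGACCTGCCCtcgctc
Bex1: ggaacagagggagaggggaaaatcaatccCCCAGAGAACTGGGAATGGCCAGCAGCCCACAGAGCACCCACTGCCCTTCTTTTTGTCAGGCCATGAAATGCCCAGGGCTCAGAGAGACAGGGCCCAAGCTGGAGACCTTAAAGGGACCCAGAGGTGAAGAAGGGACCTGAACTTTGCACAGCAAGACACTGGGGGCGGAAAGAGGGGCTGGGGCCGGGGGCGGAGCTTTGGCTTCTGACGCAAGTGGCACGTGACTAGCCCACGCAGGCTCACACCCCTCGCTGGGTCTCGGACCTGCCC

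A glucocorticoid response element written as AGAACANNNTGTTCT, searched on both strands, was in 3 of the 32851 windows (0.00913%), and its single arms AGAACA or TGTTCT were in 19%. Neither was in the windows of Bex4, Bex1, C1ra, C1rb or Fkbp5. With the whole motif in so few windows, its absence from these genes says nothing about control by the receptor. Sites outside the windows were not searched.

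**Figure D1:**
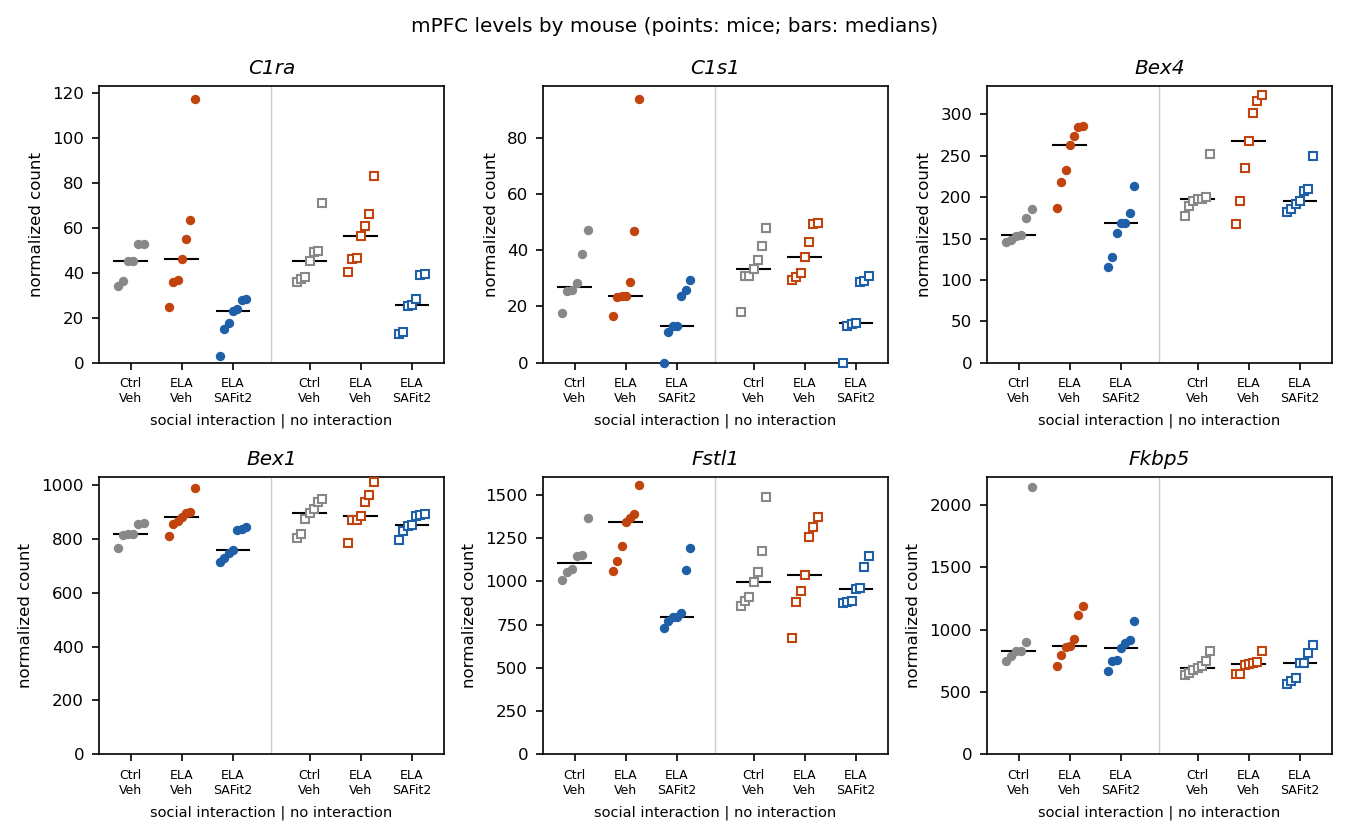
Normalized counts (vertical axes, 1 panel per gene) of C1ra, C1s1, Bex4, Bex1, Fstl1 and Fkbp5 in the mPFC, 1 point per mouse, in 6 groups by condition and by social interaction. For C1ra the ELA_SAFit2 mice reach at most 28.3 after social interaction and at most 39.3 without, while Fkbp5 overlaps between ELA_SAFit2 and ELA_Vehicle mice in both sets.

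Fstl1 encodes a secreted glycoprotein of the follistatin family. It was at 728.1, 791.7 and 1195 in ELA_SAFit2 mice, at 1057, 1343 and 1556 in ELA_Vehicle mice and at 1009, 1107 and 1368 in Ctrl_Vehicle mice. The ELA groups overlapped, and the log2 fold change was -0.55 ± 0.13 (95% interval -0.82 to -0.29; edgeR's unadjusted p = 0.000147, adjusted p = 0.55; exact permutation p = 0.0035). Without an interaction it was -0.14 ± 0.13, and the difference between both contrasts was -0.41 (edgeR's unadjusted p = 0.0317). Of all genes, 2.78% had an unadjusted p under 0.05 for this difference. Fstl1 was named for its small p after social interaction, which favours a difference, so nothing can be read from this p.

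Vps37c encodes a subunit of ESCRT-I, the complex that sorts ubiquitinated membrane proteins in endosomes. All ELA_SAFit2 mice, at 562.9, 642.1 and 653.6, lay below all ELA_Vehicle mice, at 658.5, 690.6 and 733.0. Ctrl_Vehicle mice, at 628.5, 666.1 and 718.1, overlapped with both. In size the log2 fold change was small, -0.16 ± 0.04 (edgeR's unadjusted p = 0.000174, adjusted p = 0.55; exact permutation p = 0.000583), and -0.11 ± 0.04 without an interaction.

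Selenov, a selenoprotein gene, was at 6.1, 8.8 and 18.2 in ELA_SAFit2 mice and at 17.6, 20.6 and 29.1 in ELA_Vehicle mice, which overlapped in 1 mouse of each group at most. Its log2 fold change was -1.01 ± 0.29 (edgeR's unadjusted p = 0.00122), against 0.02 ± 0.28 without an interaction. Prlr, the prolactin receptor, was at 10.6, 15.1 and 18.4 in ELA_SAFit2 mice and at 15.9, 23.5 and 46.3 in ELA_Vehicle mice, again with an overlap. Its log2 fold change was -0.89 ± 0.26 (unadjusted p = 0.00136), with the highest value in ELA_Vehicle mouse 61. Without the mPFC libraries high in olfactory bulb or striatal markers, a fit added after the values were seen, it was -0.54 (unadjusted p = 0.0592). The rest of the 12 genes with the smallest p among the lower ones were Frg1, Eola1 and Ccdc81, between -0.57 and -0.16, and Ly6c2 and Dlk1.

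Dlk1, an imprinted gene of a membrane protein related to Notch ligands, had a log2 fold change of -2.42 ± 0.69 (unadjusted p = 0.00112). It was at 8.8, 24.6 and 46.5 in ELA_SAFit2 mice and at 9.5, 50.4 and 699.1 in ELA_Vehicle mice, which overlapped. The value of 699.1 was that of mouse 61, the library with high striatal markers, and without this library the log2 fold change was -0.83 (unadjusted p = 0.15). AK157302 was at 15.4, 21.6 and 432.7 in ELA_Vehicle mice and averaged 19.7 ± 4.4 (SD, n = 7) in ELA_SAFit2 mice, with an overlap and a log2 fold change of -2.70 ± 0.89 (unadjusted p = 0.00453). Only ELA_Vehicle mice 61 and 93 were high, the libraries with high striatal and olfactory bulb markers. Without an interaction the log2 fold change was -2.18 ± 0.89, and ELA_Vehicle mouse 13 was at 464.2 with an olfactory bulb marker sum of 1263, and this library was not among those high in bulb or striatal markers. In the 5 other regions of the same mice it was negative after social interaction, down to -2.90 in the BLA, each time with an unadjusted p under 0.05. In the mPFC the exact permutation p for AK157302 was 0.227 after social interaction and 0.441 without. In the fit without the libraries high in bulb or striatal markers its log2 fold change after social interaction was -0.06 (edgeR's unadjusted p = 0.931). Ctrl_Vehicle mouse 81, without an interaction and among those libraries, was at 425.4.

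Among the genes with higher values in ELA_SAFit2 mice, Retsat, which encodes the retinol saturase of vitamin A metabolism, had the smallest p. Retsat was at 191.1, 215.2 and 467.4 in ELA_SAFit2 mice, at 172.1, 189.5 and 228.0 in ELA_Vehicle mice and at 186.3, 201.5 and 219.2 in Ctrl_Vehicle mice. ELA_SAFit2 mice 23, 55 and 95 were at 427.3 to 467.4, and the other 4 lay within the range of the ELA_Vehicle mice. For Retsat the log2 fold change was 0.66 ± 0.15 (95% interval 0.36 to 0.96; edgeR's unadjusted p = 6.43e-05, adjusted p = 0.339; exact permutation p = 0.0297), against 0.10 ± 0.15 without an interaction. None of the other 38 mPFC libraries exceeded 239.0.

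Cwc22, a splicing factor that recruits the exon junction complex, showed the same kind of pattern on a larger scale. It was at 648.8, 674.8 and 14454 in ELA_SAFit2 mice and at 622.4, 697.7 and 757.2 in ELA_Vehicle mice. ELA_SAFit2 mice 55 and 95 were at 13783 and 14454, and the other 5 overlapped with ELA_Vehicle. Its log2 fold change of 2.69 ± 0.73 (edgeR's unadjusted p = 0.000703; exact permutation p = 0.381) rested on these mice. Without an interaction 2 ELA_Vehicle mice were the high ones, at 14318 and 15354, and the log2 fold change was -2.77 ± 0.73. Gm13691, Gm13693, Gm13694 and Gm13697, also among the 12 higher genes, were at or near 0 in most mice and reached 422.9 to 511.4 in ELA_SAFit2 mice. They are near-identical to Cwc22, share its reads and are uncertain.

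Ly6c2, a gene of the Ly6 surface antigens of monocytes and endothelial cells, was high, among mice after social interaction, in some ELA_Vehicle mice only. It was at 3.1, 5.4 and 6.3 in ELA_SAFit2 mice, at 5.3, 45.2 and 62.2 in ELA_Vehicle mice and at 1.3, 5.6 and 9.4 in Ctrl_Vehicle mice. Of the ELA_Vehicle mice, 4 were at 45.2 to 62.2 and the other 3 at most at 7.8, within the range of the other groups or close to it. The log2 fold change was -2.66 ± 0.72 (edgeR's unadjusted p = 0.000649; exact permutation p = 0.0035). Without an interaction levels over 20 were found in 1 of 7 ELA_SAFit2, 3 of 7 ELA_Vehicle and 1 of 7 Ctrl_Vehicle mice, and the log2 fold change was -0.70 ± 0.64.

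**Figure D2:**
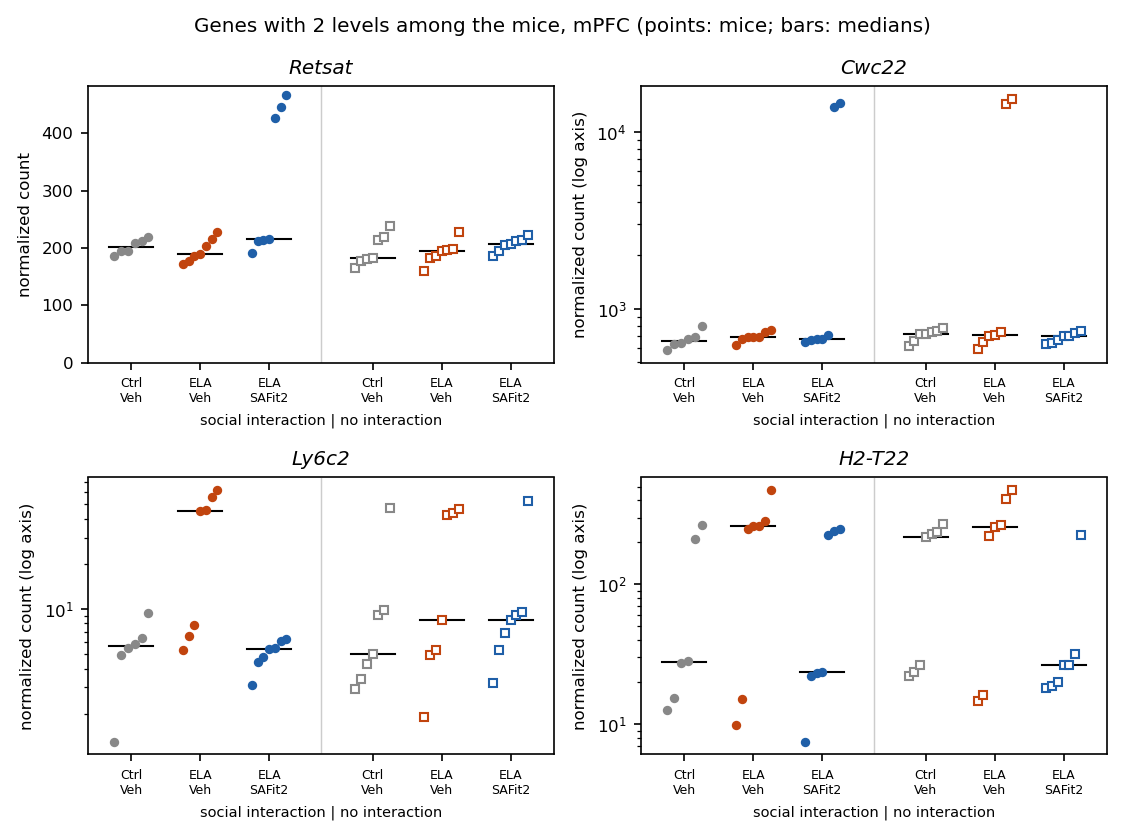
Normalized counts of Retsat (linear axis) and of Cwc22, Ly6c2 and H2-T22 (log axes) in the mPFC, 1 point per mouse, in 6 groups. Each gene has a low and a high level with few mice between, for example Retsat at 427.3 to 467.4 in 3 ELA_SAFit2 mice and at most 239.0 in all other mice.

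The remaining higher genes had graded values. Rnf26, which encodes a ubiquitin ligase of the endoplasmic reticulum membrane, was at 717.3, 775.3 and 862.0 in ELA_SAFit2 mice, at 585.0, 681.0 and 750.9 in ELA_Vehicle mice and at 754.4, 854.6 and 890.3 in Ctrl_Vehicle mice. The ELA groups overlapped while every ELA_Vehicle mouse lay below the Ctrl_Vehicle range, and the log2 fold change was 0.26 ± 0.07 (unadjusted p = 0.000508). Sec16b, a gene of the sites of export from the endoplasmic reticulum, averaged 72.9 ± 19.7 (SD, n = 7) in ELA_SAFit2 and 46.7 ± 8.8 (n = 7) in ELA_Vehicle mice, with an overlap (log2 fold change 0.64 ± 0.18, unadjusted p = 0.00122). Lad1, which encodes the basement membrane protein ladinin, was at 22.0, 43.9 and 50.3 against 17.7, 24.6 and 31.5, also with an overlap (0.72 ± 0.20, unadjusted p = 0.00104). In Apoh, the gene of a phospholipid-binding plasma protein, all ELA_SAFit2 mice (6.1, 6.6 and 11.1) lay above all ELA_Vehicle mice (0.9, 2.1 and 5.9), at counts where the counting error is large (1.63 ± 0.48, unadjusted p = 0.00179). Cyyr1 (0.37 ± 0.11) and Suds3 (0.10 ± 0.03) completed the 12.

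Of the genes around the drug target, none of 15 genes for FKBP51, the glucocorticoid receptor and their chaperones had an unadjusted p under 0.05 after social interaction, and the median log2 fold change was -0.02, against -0.00 over all genes. Fkbp5 itself was at 667.2, 848.7 and 1071 in ELA_SAFit2 mice, at 711.4, 870.4 and 1192 in ELA_Vehicle mice and at 750.1, 831.3 and 2140 in Ctrl_Vehicle mice, with wide overlap. Its log2 fold change was -0.13 ± 0.16 (95% interval -0.45 to 0.19). For Nr3c1, which encodes the glucocorticoid receptor, it was -0.03 ± 0.06 (95% interval -0.16 to 0.09). None of 22 glucocorticoid-induced genes had an unadjusted p under 0.05 (median -0.02), nor did any of 16 clock genes. Over all genes 4.93% had such a p, so a count of 0 in lists of this size says little about their members.

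Immediate early genes, which neurons switch on within minutes of activity, had values above 0 in 22 of 24 members, with a median log2 fold change of 0.18. The highest was Fos, at 0.47 ± 0.60, and none had an unadjusted p under 0.05 (4.93% of all genes did). Fos averaged 963.5 ± 659.1 (SD, n = 7) normalized counts in ELA_SAFit2 and 697.0 ± 288.0 (n = 7) in ELA_Vehicle mice, so the spread between mice exceeded the difference. Without an interaction the median of the list was 0.03.

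Of 22 tested interferon-stimulated genes, Ifit3 was higher and Ifit2 lower at an unadjusted p under 0.05 (4.93% of all genes had such a p). Both encode antiviral proteins of the IFIT family. Ifit2 was at 240.7, 272.3 and 604.7 in ELA_SAFit2 mice, at 257.6, 632.2 and 869.6 in ELA_Vehicle mice and at 226.2, 432.7 and 976.5 in Ctrl_Vehicle mice, with wide overlap (-0.82 ± 0.34, unadjusted p = 0.0208). Ifit3 was at 17.3, 46.1 and 108.1 in ELA_SAFit2 mice, at 0.9, 20.1 and 31.5 in ELA_Vehicle mice and at 7.5, 18.4 and 65.9 in Ctrl_Vehicle mice (1.29 ± 0.59, unadjusted p = 0.0354). Both genes had the same direction without an interaction, at -1.02 ± 0.34 and 1.96 ± 0.61. Ifit3b, another member of the list, went the other way from Ifit3 after social interaction (-0.26 ± 0.26, edgeR's unadjusted p = 0.332). Without an interaction Ifit3b was at 0.13 ± 0.26. Whether the counting divided reads between Ifit3 and Ifit3b was not tested, so the value of Ifit3 is uncertain. H2-T22, a nonclassical MHC class I gene, was over 100 in 3 of 7 ELA_SAFit2 and 5 of 7 ELA_Vehicle mice (-0.96 ± 0.83, unadjusted p = 0.256). No member of the 14 MHC class I genes and none of the 11 Toll-like receptor genes had an unadjusted p under 0.05.

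The study picked 10 genes on mice without an interaction as examples of a trajectory with adversity and SAFit2, so their direction in those mice is no independent evidence. After social interaction 3 of them had an unadjusted p under 0.05 (4.93% of all genes), Ifit2, Ifit3 and Cwc22. Cwc22 had the opposite sign in the mice without an interaction. The other 7 were Abcb1b (0.25 ± 0.47), Best1 (0.17 ± 0.56), Tlr1 (-0.54 ± 0.64), H2-T22, Ifit1bl1 (0.96 ± 0.68), Sp6 (-0.44 ± 0.35) and Zfp984 (-0.46 ± 0.69). All 7 had the same sign in both sets of mice, as did 55.1% of all tested genes. None of the 7 had an unadjusted p under 0.05 after social interaction. Best1 turned to -0.04 with 1 library left out, so the count says little.

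Of the transmitter genes, few had an unadjusted p under 0.05 (4.93% of all genes did). Of 24 glutamate receptor and transporter genes Grin2a (0.14 ± 0.07) and Grm7 (0.13 ± 0.06) had an unadjusted p under 0.05, and of 29 monoamine, acetylcholine and cannabinoid receptor genes Htr4 did (-0.70 ± 0.25, unadjusted p = 0.0077). None of 20 GABA genes, 28 neuropeptide and peptide receptor genes or 6 drug efflux transporter genes did. The medians of these lists lay between -0.08 and 0.09, with single members as low as -2.01 (Drd3) and -0.87 (Tac1).

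Of the cell type markers, Rorb of cortical projection neurons (0.37 ± 0.12, unadjusted p = 0.00372), Tmem119 of microglia (0.33 ± 0.14, unadjusted p = 0.0234) and Slco1a4 of endothelium (0.17 ± 0.08, unadjusted p = 0.0458) were higher at an unadjusted p under 0.05 (2.39% of all genes were). The 12 projection neuron markers that include Rorb had a median of -0.06 and lay between -0.64 and 0.39, with 5 above 0. All 8 microglia markers had positive log2 fold changes (median 0.10) and all 8 oligodendrocyte markers negative ones (median -0.28, and -0.46 without an interaction), with none of the latter under an unadjusted p of 0.05. No marker of interneurons (10), astrocytes (8), oligodendrocyte precursors (5), meningeal fibroblasts (8), ependymal cells (4), blood (5) or olfactory bulb neurons (9) reached it. All 10 striatal markers were below 0 (median -0.77), with Isl1 at -2.39 ± 1.16 (unadjusted p = 0.0459). Without the libraries high in bulb or striatal markers the striatal median was 0.36, and Isl1 was at 0.19. Of 5 choroid plexus genes, Prlr was lower, and the list median of -0.89 was -0.23 without these libraries. Summed choroid plexus markers reached 428 in ELA_Vehicle mouse 61, against at most 171 in ELA_SAFit2 mice. The ependymal median was -0.50, and 0.34 without these libraries. In the fit without these libraries the log2 fold change was -1.64 for C1ra, -0.76 for Bex4, -0.44 for Fstl1 and 0.77 for Retsat. Each of them had an unadjusted p under 0.05 with edgeR, as did Rorb, Slco1a4 and Htr4. Tmem119 did not keep such a p in this fit (0.31, edgeR's unadjusted p = 0.0677). Neither did Ifit2 (-0.57, unadjusted p = 0.151), Ifit3 (unadjusted p = 0.0663), Grin2a (0.06, unadjusted p = 0.342) or Grm7 (0.13, unadjusted p = 0.068). The part of the other cell types was not tested.

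All 13 mitochondrially encoded genes were above 0 (median 0.12), with mt-Co1 at 0.13 ± 0.06 (unadjusted p = 0.0376). Of 89 cytosolic ribosomal protein genes, 5 were lower at an unadjusted p under 0.05 (2.54% of all genes were), Rpl5, Rpl7a, Rps16, Rps26 and Rps27rt, at -0.21 to -0.06, and none higher. The median of the 89 was -0.04, and -0.02 without the libraries high in bulb or striatal markers. In that fit Rpl5 kept an unadjusted p under 0.05 with edgeR (0.0417). Rpl7a, Rps16, Rps26 and Rps27rt did not, at 0.164 to 0.259. Without an interaction 4 of the 89 were higher at such a p (2.04% of all genes were) and 0 lower.

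**Figure D3:**
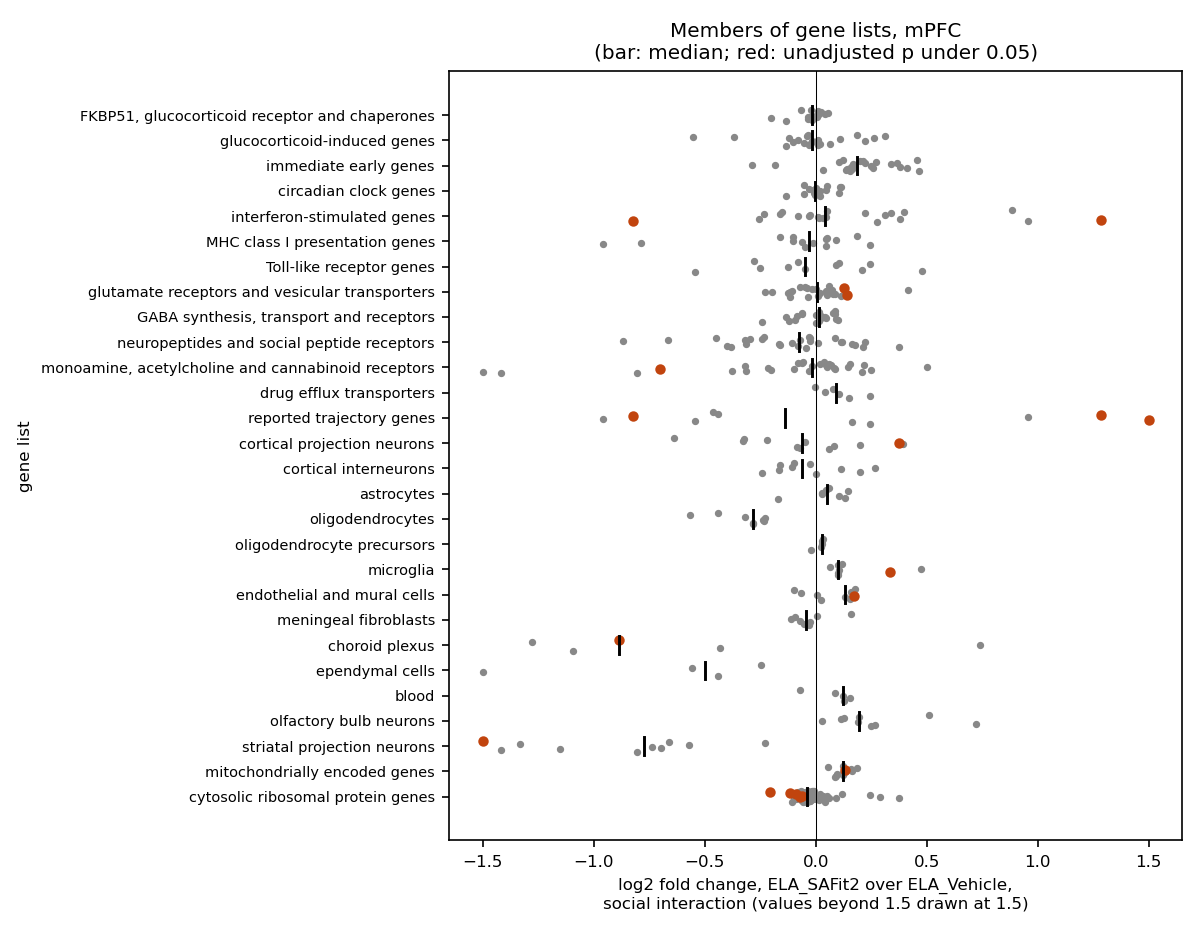
Log2 fold changes of ELA_SAFit2 against ELA_Vehicle mice after social interaction (horizontal axis, values past 1.5 drawn at the edge) for the members of each gene list (vertical axis), with a bar at the median and members with an unadjusted p under 0.05 in red. Most lists centre near 0. Choroid plexus (-0.89), striatal (-0.77) and ependymal markers (-0.50) centre furthest from it, and their medians are -0.23, 0.36 and 0.34 without the libraries high in bulb or striatal markers.

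In mice without an interaction, 1 gene passed the adjusted threshold (0.00632% of 15812) and 685 had an unadjusted p under 0.05 (4.33%; 2.04% higher and 2.3% lower). Without ELA_Vehicle mouse 43 these were 1318 genes. The called gene was Tmsb15b2, a beta thymosin that binds actin monomers. It was at 23.6, 26.3 and 31.8 in ELA_SAFit2 mice, below all ELA_Vehicle mice at 37.3, 78.4 and 88.8 (-1.44 ± 0.25, edgeR's adjusted p = 0.0275). With each library left out in turn it passed in 1 of 14 fits, the one without the ELA_Vehicle mouse at 37.3, and its adjusted p reached 0.128. After social interaction the groups overlapped, at 18.4, 37.3 and 41.7 against 25.3, 37.5 and 71.3 (-0.17 ± 0.26). The other genes with the smallest p without an interaction were Tbc1d19, Ppfia4, Kdm5c and Acsl4. Of these, Acsl4, which activates arachidonic acid, had an unadjusted p under 0.05 after social interaction as well (-0.11 ± 0.05 against -0.22 ± 0.05). Without the libraries high in bulb or striatal markers, Acsl4 was at -0.09 after social interaction (edgeR's unadjusted p = 0.137).

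Directions in both sets of mice, which share no library, were set side by side as a description. Over all 15812 genes, 55.1% had the same sign of log2 fold change in both. Of the 780 genes with an unadjusted p under 0.05 after social interaction, 490 (62.8%) had the same sign without an interaction, 242 of the 378 higher genes (64%) and 248 of the 402 lower genes (61.7%). The share was 59.6% without the libraries high in bulb or striatal markers, where the share over all genes was 53%. In the reverse reading, 464 of 685 genes (67.7%) had the same sign. Spearman's rho across all genes was 0.18 and Pearson's r -0.05, over genes that are not independent replicates.

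Among the 24 genes with the smallest p, 13 had the same sign in both sets, 9 of the 12 lower and 4 of the 12 higher ones. An unadjusted p under 0.05 in the same direction was found for Bex4, C1ra and Vps37c. Cwc22 and its 4 near-copies among the 24 had such a p in the opposite direction. Suds3, Sec16b and Apoh of the higher genes and Dlk1, Ccdc81 and Selenov of the lower ones also had opposite signs, with p-values above 0.05 without an interaction.

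Across all tested genes, 71 had an unadjusted p under 0.05 in both sets, and 54 of them (76.1%) had the same sign, 24 higher and 30 lower. Of the 17 with opposite signs, 7 were Cwc22 and near-copies. Without them 54 of 64 genes (84.4%) had the same sign. They were left out after their values were seen and all had opposite signs, so this share could only rise. In the fit without the libraries high in bulb or striatal markers, 43 of 61 genes (70.5%) had the same sign. Examples chosen after their values were seen are Hhatl (0.48 and 0.51, after social interaction and without), the cytokine receptor gene Flt3 (0.18 and 0.31) and the Wnt ligand gene Wnt2 (-0.48 and -0.48). Bcl2l12 had opposite signs (-0.56 and 0.53). Of the beta thymosins, Tmsb4x (-0.14 and -0.11) and Tmsb15b1 (-0.47 and -0.79) were lower in both sets at an unadjusted p under 0.05.

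**Figure D4:**
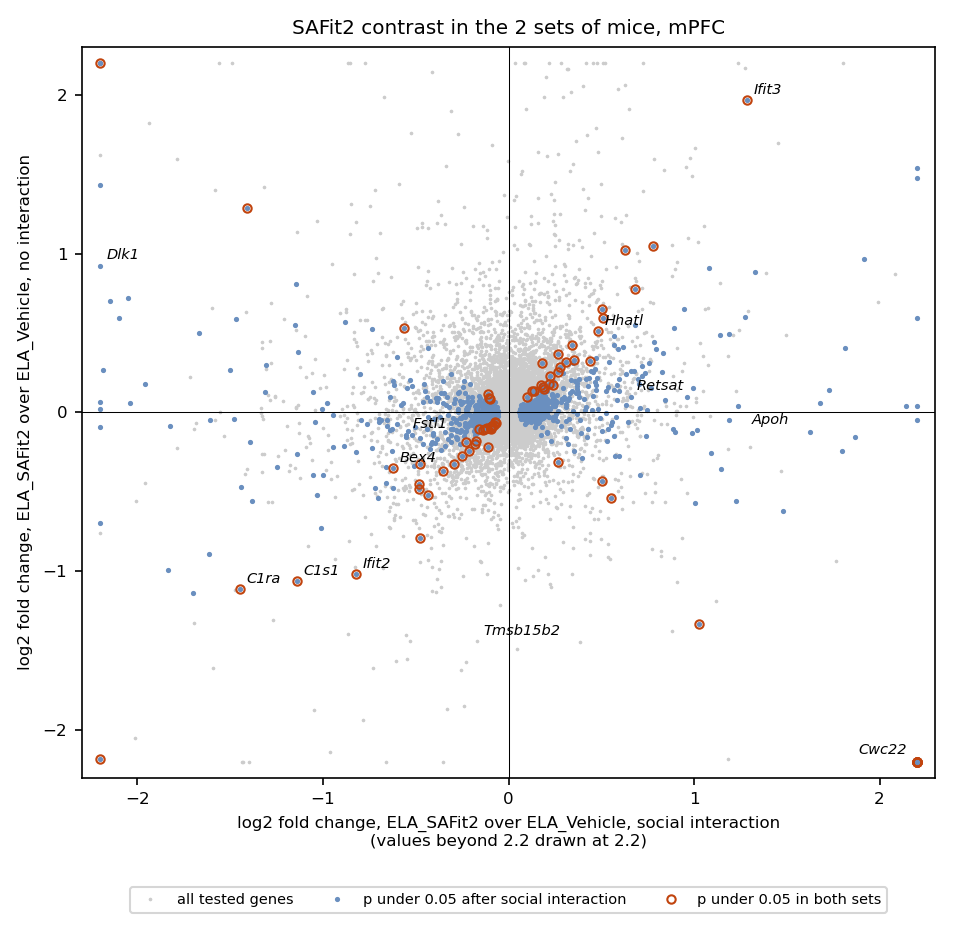
Log2 fold change of ELA_SAFit2 against ELA_Vehicle mice without an interaction (vertical axis) against that after social interaction (horizontal axis) for all 15812 tested genes, 1 point per gene, drawn at the edge past 2.2. C1ra (-1.44 and -1.11) and Bex4 (-0.62 and -0.35) are low on both axes, while Cwc22 (2.69 and -2.77) and its near-copies have opposite signs.

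The difference between both contrasts was tested directly. No gene passed the adjusted threshold (0 of 15812, 0%) and 439 had an unadjusted p under 0.05 (2.78%) with edgeR. DESeq2 called Cwc22 and Gm13693, and edgeR called 7 genes without ELA_SAFit2 mouse 79, where 969 had an unadjusted p under 0.05. The smallest adjusted p with edgeR was that of Cwc22 (difference 5.47, adjusted p = 0.0572), followed by 4 of its near-copies. For C1ra the difference was -0.33 ± 0.42 and for Bex4 -0.27 ± 0.18, so neither was shown to differ between the sets of mice.

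The mean of both contrasts was added after the values were seen, and with it 2 genes passed the adjusted threshold (0.0126% of 15812). C1ra was lower in ELA_SAFit2 mice by a mean log2 fold change of -1.28 ± 0.21 (edgeR's adjusted p = 0.00907) and Bex4 by -0.49 ± 0.09 (adjusted p = 0.0237). In a fit of the 4 ELA groups alone the adjusted p was 0.106 for C1ra and 0.129 for Bex4. With each of the 28 libraries left out in turn, C1ra passed in all 28 fits (mean log2 fold change -1.34 to -1.12) and Bex4 in 15. With DESeq2 8 genes passed, C1ra and Bex4 among them.

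The same mice were sampled in 5 other regions, which are not independent of the mPFC libraries. No gene passed the adjusted threshold after social interaction in the anterior cingulate cortex (ACC), basolateral amygdala (BLA), dorsomedial thalamus (DMT), ventral hippocampus (vHipp) or nucleus accumbens (Nacc), where 2.03% to 4.86% of genes had an unadjusted p under 0.05. In the Nacc, the levels of Retsat, Ly6c2 and C1s1 by mouse number did not follow those in the other regions, so its labels are in doubt and its values are given as labelled. Of the 24 genes, 9 had the same direction with such a p in at least 3 other regions, and 9 in no other region. Among the first 9 were Cwc22 and its near-copies, which share reads, and Retsat, Ly6c2, Rnf26 and Fstl1. The share of all genes with such a p in at least 3 other regions was not computed. These counts therefore do not measure agreement between regions.

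Fstl1 was lower at an unadjusted p under 0.05 in the ACC (-0.33 ± 0.09), BLA (-0.37 ± 0.11), DMT (-0.44 ± 0.15) and vHipp (-0.30 ± 0.10), and at -0.04 ± 0.15 in the Nacc. In these same 4 regions it was also lower in mice without an interaction (-0.34 to -0.20), where the mPFC value was -0.14 ± 0.13. C1ra was at -1.12 ± 0.32 in the ACC (unadjusted p = 0.00127) and between -0.69 and 0.15 in the others. Its copy C1rb was higher after social interaction in the ACC (1.54 ± 0.55), DMT (2.46 ± 0.84) and vHipp (1.43 ± 0.62), each with an unadjusted p under 0.05. The sum of both genes was taken in the mPFC only, so the split of reads leaves the ACC value of C1ra uncertain. Bex4 was negative in all 6 regions in both sets of mice. Its p after social interaction was under 0.05 in the vHipp (-0.29 ± 0.13) but not in the ACC, BLA, DMT or Nacc, whereas without an interaction it was under 0.05 in all 5. Ifit2 was lower in the ACC, BLA, DMT and vHipp at an unadjusted p under 0.05, and Ifit3 higher in the ACC, DMT and vHipp. Ifit3b was not compared in these regions. Apoh, separated in the mPFC, had no such p elsewhere.

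**Figure D5:**
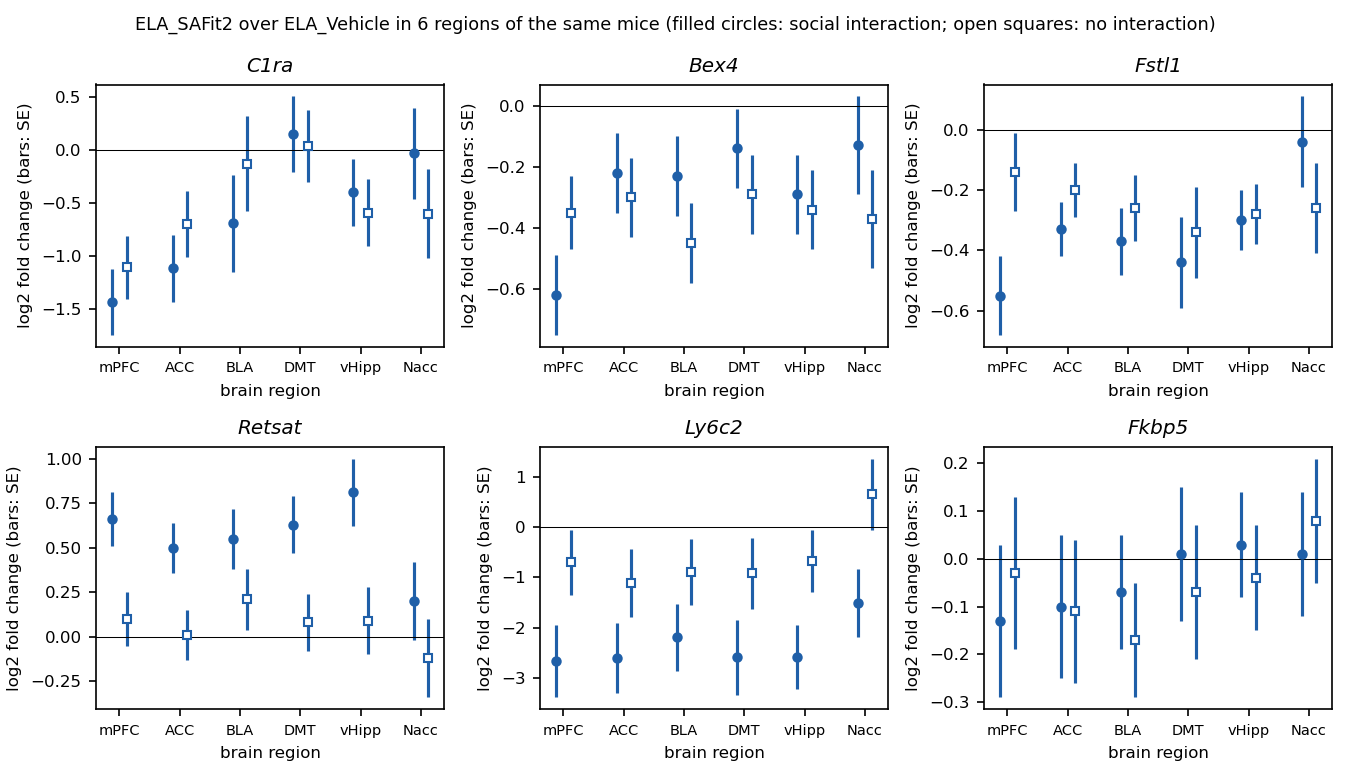
Log2 fold change of ELA_SAFit2 against ELA_Vehicle mice after social interaction and without (vertical axes, bars are the SE) in 6 brain regions for C1ra, Bex4, Fstl1, Retsat, Ly6c2 and Fkbp5. Fstl1 is between -0.55 and -0.30 after social interaction outside the Nacc, and Retsat is at 0.66 in the mPFC after social interaction and at 0.10 without.

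The high levels of Retsat followed single mice across regions. Mice 23, 55 and 95 were the highest in the ACC, BLA, DMT and vHipp as well, and in the Nacc mice 55 and 95 were high, together with ELA_Vehicle mouse 61 at 607.6. The mice high for Cwc22 were the same in all 6 regions. C1s1 was at 0 in ELA_SAFit2 mouse 23 in 5 of 6 regions, and in the Nacc it was at 6.6. ELA_SAFit2 mouse 39, without an interaction, was at 0 in the same 5 regions and at 12.2 in the Nacc.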

How the data were processed

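Poly-A RNA from punches was made into stranded libraries and sequenced by the authors. The deposited table holds estimated counts per gene, the output of salmon as run by the authors, with no correction for depth or length. The submitters' processing notes name STAR, DESeq2 and build GRCm39 (mm39); annotation release and salmon version are not given in the sources used here. Of the values, 12.12% were not whole, and they were rounded. Groups came from the sample labels.

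Gene types came from GENCODE M21 (52073 of 56691 identifiers matched) or RefSeq symbols (978), and the 3640 without a type were dropped. Tests covered protein-coding genes whose counts summed to 100 or more and were above 0 in 6 or more libraries, with edgeR 4.0.16 (TMM, quasi-likelihood test, Benjamini-Hochberg adjustment, R 4.3.3) in 1 model of the 41 mPFC libraries and 6 groups. The other regions were fitted likewise. Single genes were also tested by two-sided exact permutation over 3432 regroupings, on log2 of the normalized count plus 1. DESeq2 1.42.0, other size factors, filters and sets of libraries were the alternatives. The fit was tested on simulated data. No 2 libraries of a group agreed within sampling noise (chi-square per degree of freedom 4.88 to 51.0). Python 3.11.15, NumPy 2.4.6, pandas 2.3.3 and Matplotlib 3.10.9 did everything else.

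The comparison and the gene lists were chosen with earlier results of these data known. Named genes are the 12 with the smallest p in each direction, the 5 with the smallest p without interaction and for the difference, Fkbp5, Nr3c1, the study's 10 trajectory genes, list members with an unadjusted p under 0.05, and the gene with the largest such change in each direction at a mean normalized count over 20. Promoter sequences and positions are RefSeq's (GRCm38.p6), and no position in the files' build is given.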

Additional observations from a re-analysis of the deposited data

Results flagged for a closer look

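In 75 groups of 6 or 7 mice examined, all after social interaction, 13 had a mouse whose gap to its nearest neighbour, as a share of the group's range, passed Dixon's 95% critical value; chance alone gives about 1 in 20.

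C1ra in ELA_Vehicle mice had a gap of 0.581 of the range, with 1 mouse at 117.2 and the next at 63.3. C1s1 had a gap of 0.608 in the same group, at 93.7 against 46.9, in the same mouse. Without this mouse the log2 fold change of C1ra was -1.13.

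Fkbp5 in Ctrl_Vehicle mice had a gap of 0.894, at 2140 in mouse 57 against 897.2 in the next. Ifit2 in ELA_SAFit2 mice had a gap of 0.603, at 604.7 in mouse 23 against 385.2. Tmsb15b2 had a gap of 0.694 in ELA_SAFit2 mice, with a lowest value of 18.4 and the next at 34.6, and of 0.667 in ELA_Vehicle mice, with a highest value of 71.3 and the next at 40.6. AK157302 in ELA_SAFit2 mice had a gap of 0.604, with a lowest value of 11.0 and the next at 18.8.

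Dlk1 in ELA_Vehicle mice had a gap of 0.874, at 699.1 against 96.5. The mouse was 61, which also gave the gap of 0.952 in summed striatal markers (42399 against 8471). In Ctrl_Vehicle mice these markers had a gap of 0.753 (12412 against 7690). Summed olfactory bulb markers had gaps of 0.887 in ELA_SAFit2 (13969 against 2020), 0.933 in ELA_Vehicle (11227 against 1293) and 0.701 in Ctrl_Vehicle mice (3641 against 1490). The part of these markers in the gene results was tested only by the fit without the libraries in which they were high and by a fit with an olfactory bulb marker covariate, where the mean log2 fold change of both contrasts was -1.32 for C1ra and -0.50 for Bex4.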

How the results depend on the processing

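Of the values computed with 1 library left out, 755 kept their direction and side of the threshold and 15 reversed; under the other settings 541 did, 4 reversed and 3 passed only there. With DESeq2 the genes past the adjusted threshold numbered 3 after social interaction, 2 for the difference and 8 for the mean of the contrasts, and Bex4 (-0.62), C1ra (-1.44) and Gm13693 passed after social interaction. Without an interaction 0 genes passed with an olfactory bulb marker covariate, and 0 without the libraries high in bulb or striatal markers. In the 4 ELA groups alone 0 passed for the mean. With 1 library left out, calls ranged from 0 to 0 after social interaction, from 0 to 1 without (Tmsb15b2 passed only without the ELA_Vehicle mouse lowest in it), from 0 to 7 for the difference (7 without ELA_SAFit2 mouse 79) and from 1 to 4 for the mean (4 without ELA_SAFit2 mouse 55). Genes with an unadjusted p under 0.05 after social interaction ranged from 579 (without the ELA_Vehicle mouse highest in C1ra) to 1067 (without ELA_SAFit2 mouse 79). Of the reversed values, Tbc1d19 stayed close to 0, at -0.00 with RLE size factors, -0.00 with the compared groups only and -0.02 without the high-marker libraries. Isl1 went from -2.39 to 0.19 without these libraries, and to -0.19 without ELA_Vehicle mouse 61 alone. Values that kept their direction could also shrink. Dlk1 went from -2.42 to -0.83 without mouse 61, and AK157302 from -2.70 to -0.06 without the high-marker libraries. With 1 library left out, Tmsb15b2 ranged from -0.26 to 0.03, Tbc1d19 from -0.01 to 0.02, Kdm5c from -0.03 to 0.01, Nr3c1 from -0.08 to 0.00 and Best1 from -0.04 to 0.41. The cause was not tested. No paired analysis was possible because the compared groups hold different mice with different numbers. At these depths a gene near 5 counts has a large counting error.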
